A study of Komagataella pastoris with 60 samples.

Results

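FLD1, FGH1 and FDH1 of the methylotrophic yeast Pichia pastoris encode the enzymes that oxidise formaldehyde to carbon dioxide when the cells grow on methanol. The 3 genes were chosen by their IDs, Pipas_chr3_1028 (FLD1), Pipas_chr3_0867 (FGH1) and Pipas_chr3_0932 (FDH1), out of the 5319 host genes counted in every library. The files list IDs alone, so the names rest on that choice. Their levels were followed in the mRNA and in the mRNA bound to ribosome–nascent chain complexes (RNC-mRNA) of 4 ribosomal protein deletion strains and the wild type.

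Methanol is first oxidised to formaldehyde, which is toxic and lies at a branch point between assimilation into biomass and dissimilation to carbon dioxide. Fld1 is a formaldehyde dehydrogenase that uses glutathione and NAD, Fgh1 hydrolyses its product S-formylglutathione to formate, and Fdh1 is the formate dehydrogenase that ends the pathway. Both dehydrogenase steps yield NADH. The pathway is known for its induction by methanol.

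The strains were rpl38∆ and rpl9a∆, each without a gene of the large ribosomal subunit, rps7∆ and rps25∆, each without a gene of the small subunit, and wt. All 5 derive from GS115 and carry Phy, a phytase gene from Citrobacter amalonaticus that was integrated as a single copy behind the AOX1 promoter, so wt here is a Phy-producing strain and not an untransformed one. Cultures in methanol medium (BMMY, with methanol fed every 24 h) were sampled at 24, 48 and 72 h. Each strain and time had 2 libraries of each assay, 60 libraries in all. The study's methods call the replicates biological, while the labels only number them. By the methods each sample was divided to extract both RNAs, though no label ties the numbers of the 2 assays. Growth is not part of the files, so an effect of strain and one of growth cannot be told apart.

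Levels are given as CPM, the reads of a gene per 1000000 host gene reads of its library. Fold changes are on the log2 scale of edgeR's quasi-likelihood fit with TMM scaling, and adjusted p is its Benjamini-Hochberg value over all genes tested, with a threshold of 0.05. Libraries held 2970406 to 15476958 host gene reads in mRNA and 1508702 to 13532265 in RNC-mRNA. The lowest count of a member was 572 reads (FGH1, RNC-mRNA), and replicates of a group differed over genes by at least 2.39 times the variance of sampling noise in mRNA and 2.89 times in RNC-mRNA (chi-square per degree of freedom). The deleted gene had at most 16 mRNA reads in its own strain and at least 22 in every other strain. All levels are shares of sequenced RNA, so less of a transcript per cell and fewer cells that hold it cannot be told apart.

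Some libraries stood apart. The mRNA replicates of rpl9a∆ at 48 h lay far from each other, with FLD1 at 5063 and 1979 CPM, and so did their RNC-mRNA (8697 and 2979 CPM). Across genes, replicate 2 of rpl9a∆ RNC-mRNA taken at 72 h correlated at best at −0.386 with mRNA from the matching rpl9a∆ libraries, while every other RNC-mRNA library reached at least 0.600 with its matching mRNA. The RNC-mRNA replicates of rpl38∆ at 72 h held 15972 and 3739 CPM of FDH1.

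All 3 genes were among the most abundant host mRNAs in wt. In wt mRNA, FDH1 stood at 3 to 4 in the order of RPKM (reads per kilobase of gene, scaled to depth) among 5141 host genes, FLD1 at 10 to 20 and FGH1 at 45 to 77. Per kilobase, wt mRNA held 2.26 and 2.19 FDH1 reads for each FLD1 read at 24 h, 2.44 and 2.44 at 48 h and 2.33 and 2.41 at 72 h. The corresponding ratios of FDH1 to FGH1 were 6.82 and 6.99, 5.83 and 6.17, and 6.16 and 6.18. In wt mRNA the last enzyme of the pathway was thus the most abundant per length at all 3 times and the proportions differed little between times. Together the 3 genes took 0.607 to 2.18% of host gene reads in mRNA and 0.513 to 3.67% in RNC-mRNA over all libraries.

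FLD1, the entry enzyme, fell most in rps7∆ and rpl38∆ and exceeded wt in rps25∆ at 72 h. In rpl38∆, FLD1 mRNA was at 4824 and 4899 CPM at 24 h, 1048 and 1137 at 48 h, and 1038 and 1141 at 72 h. The rpl9a∆ libraries held 6267 and 7078 CPM at 24 h, 5063 and 1979 at 48 h, and 1518 and 1669 at 72 h. At 24 h the rpl38∆ libraries lay below those of wt and the rpl9a∆ libraries above them, and at 72 h both strains lay far below. The rps7∆ libraries held 2246 and 2376 CPM at 24 h, 1053 and 1035 at 48 h, and 2029 and 1886 at 72 h, and those of rps25∆ 4803 and 4649 CPM at 24 h, 3745 and 4006 at 48 h, and 7074 and 7194 at 72 h. The wt libraries held 5386 and 6159 CPM at 24 h, 5232 and 5404 at 48 h, and 3909.7 and 3898 at 72 h. Every rps7∆ library lay below both wt libraries of its time, and both rps25∆ libraries at 72 h lay above them.

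The log2 fold changes of FLD1 mRNA over wt in rpl38∆ were −0.13 (standard error 0.26, adjusted p = 0.691) at 24 h, −2.45 (standard error 0.27, adjusted p = 1.34e-07) at 48 h and −1.92 (standard error 0.27, adjusted p = 2.36e-06) at 72 h. In rpl9a∆ FLD1 was not called at 24 h (0.51, adjusted p = 0.104) or 48 h (−0.62, adjusted p = 0.0587) and was lower at 72 h, at −1.27 (standard error 0.26, adjusted p = 0.00024). The 48 h value was −1.59 without replicate 1 and −0.068 without replicate 2, the first past the threshold. In rps7∆ it was lower at all 3 times, with −1.57, −3.06 and −1.47 and adjusted p of at most 4.88e-05. In rps25∆ it was lower at 24 h (−0.61, adjusted p = 0.0475) and 48 h (−0.66, adjusted p = 0.0363) and higher at 72 h (0.77, adjusted p = 0.0166). With library size alone the 24 h and 48 h calls were lost (−0.30, adjusted p = 0.254 and −0.46, adjusted p = 0.0942). The 72 h call was lost without any 1 of the 4 libraries of wt and rps25∆ at that time (highest adjusted p = 0.082). With all libraries it was the only one of the 36 mRNA comparisons of a member with wt called higher, where 29.3% of all tests over genes in these 12 contrasts were. More were called higher without either rpl9a∆ library at 48 h, as given below.

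**Figure D1:**
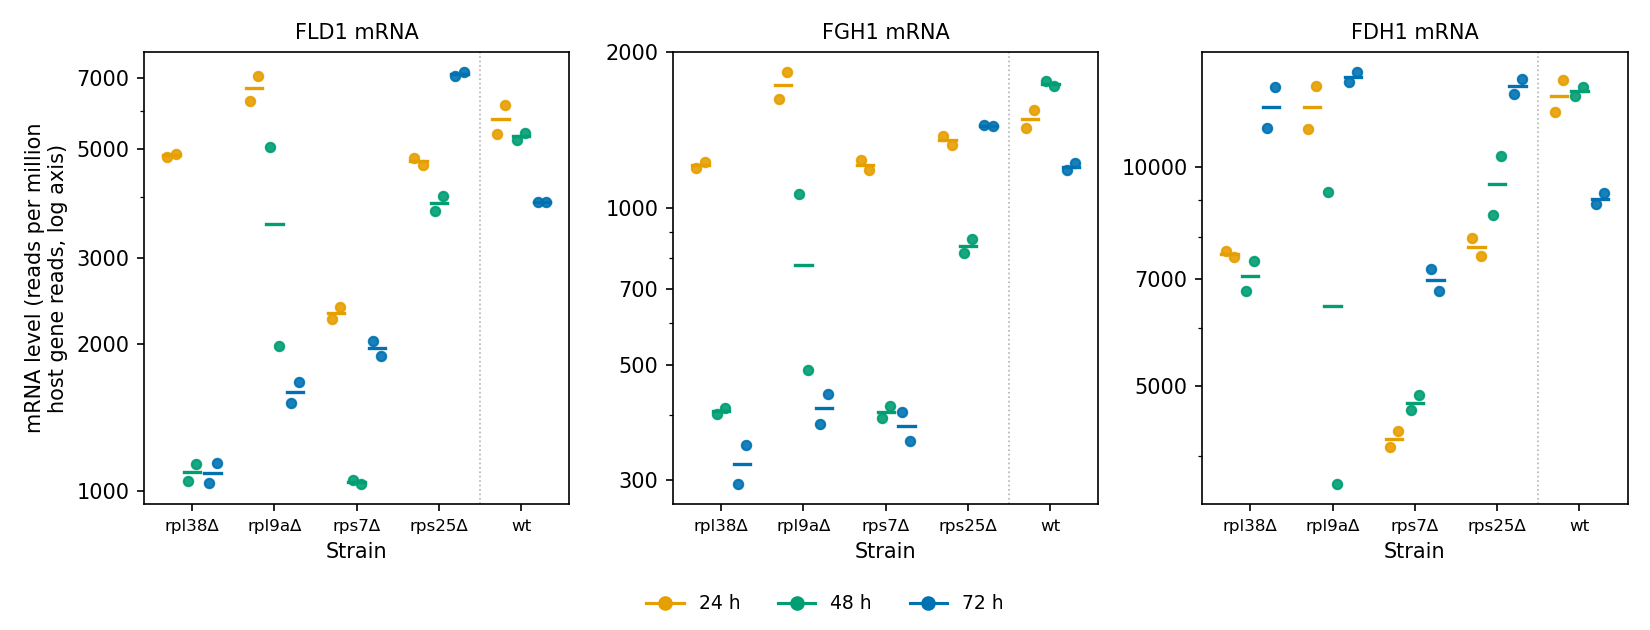
mRNA level of FLD1, FGH1 and FDH1 (y axis, reads per 1000000 host gene reads, log axis) by strain (x axis) and time in methanol medium (colour). Points are the 2 libraries of a group and bars their mean. FLD1 and FGH1 of rpl38∆ at 48 and 72 h lie under every wt library, while both FDH1 points of rpl38∆ and of rpl9a∆ at 72 h lie above those of wt at 72 h.

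FGH1, the hydrolase of the middle step, followed FLD1 in rpl38∆ and rpl9a∆. In rpl38∆, FGH1 mRNA was at 1197 and 1229 CPM at 24 h, 401 and 413 at 48 h, and 295 and 349.5 at 72 h. Its level in rpl9a∆ was 1625 and 1827 CPM at 24 h, 1064 and 487 at 48 h, and 385 and 439 at 72 h. At 72 h both strains were at most at 439 CPM, against at least 1184 CPM in wt. Its level in rps7∆ was 1237 and 1185 CPM at 24 h, 395 and 417 at 48 h, and 405 and 356 at 72 h, and in rps25∆ 1378 and 1322 CPM at 24 h, 818 and 870.1 at 48 h, and 1443 and 1438 at 72 h. In wt it stood at 1429 and 1545 CPM at 24 h, 1757 and 1714 at 48 h, and 1184 and 1219 at 72 h. The rps7∆ libraries lay only slightly under wt at 24 h and far under it afterwards.

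At 48 h FGH1 mRNA was lower than in wt in all 4 deletion strains, at −2.26 (standard error 0.24, adjusted p = 5.73e-08) in rpl38∆, −1.19 (adjusted p = 0.000259) in rpl9a∆, −2.81 (adjusted p = 2.41e-09) for rps7∆ and −1.24 (adjusted p = 0.000112) in rps25∆. The rpl9a∆ value was −1.99 without replicate 1 and −0.70 without replicate 2, still past the threshold. At 72 h it was lower in rpl38∆ (−1.98, adjusted p = 2.65e-07), rpl9a∆ (−1.52, adjusted p = 7.01e-06) and rps7∆ (−2.13, adjusted p = 8.7e-08), but not in rps25∆ (0.17, adjusted p = 0.565). At 24 h only the rps7∆ difference passed, narrowly (−0.54, adjusted p = 0.0416). The 3 other strains were at −0.18 in rpl38∆, 0.52 in rpl9a∆ and −0.46 in rps25∆.

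FDH1, the last enzyme, was lower in rps7∆ throughout and did not fall with FLD1 and FGH1 at 72 h in rpl38∆ and rpl9a∆. In rpl38∆, FDH1 mRNA was at 7651 and 7517 CPM at 24 h, 6745 and 7414 at 48 h, and 11307 and 12868 at 72 h. Libraries of rpl9a∆ had 11288 and 12937 CPM at 24 h, 9230.1 and 3661 at 48 h, and 13090.4 and 13512 at 72 h. At 72 h all 4 of these libraries lay above both wt libraries. Libraries of rps7∆ had 4121 and 4331 CPM at 24 h, 4622 and 4852 at 48 h, and 7233 and 6751 at 72 h, and those of rps25∆ 7993 and 7543 CPM at 24 h, 8592 and 10358 at 48 h, and 12607 and 13214 at 72 h. Libraries of wt had 11895 and 13174 CPM at 24 h, 12511 and 12902 at 48 h, and 8901 and 9195 at 72 h. By CPM, the 72 h libraries of wt were the lowest, and in each deletion strain they were the highest for FDH1. In rpl9a∆ that order depended on the scaling, as edgeR with TMM put 72 h against 24 h at −0.34 (adjusted p = 0.248).

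The fold changes of FDH1 mRNA at 72 h were 0.34 (standard error 0.26, adjusted p = 0.26) in rpl38∆, 0.58 (standard error 0.26, adjusted p = 0.0586) in rpl9a∆ and 0.42 (standard error 0.26, adjusted p = 0.193) in rps25∆, none of them past the threshold. In rps7∆ FDH1 was lower, at −1.81 at 24 h, −2.14 at 48 h and −0.85 at 72 h, with adjusted p of at most 0.0079. The 48 h value was below wt in rpl38∆ as well (−1.01, adjusted p = 0.00246) and rpl9a∆ (−1.01, adjusted p = 0.0043), while rps25∆ just missed the threshold (−0.63, adjusted p = 0.0504). In rpl9a∆ it was −1.96 without replicate 1 and −0.46 without replicate 2, both past the threshold. At 24 h rps25∆ was lower (−1.01, adjusted p = 0.0026). Not past the threshold at 24 h were rpl38∆ (−0.61, adjusted p = 0.0596) and rpl9a∆ (0.26, adjusted p = 0.433).

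Over the 36 mRNA comparisons, 22 were called lower in the deletion strain, 1 was called higher and 13 did not pass. Of all tests over genes in the same 12 contrasts, 28.1% were called lower. The 22 comprised 9 of 9 in rps7∆, 5 of 9 in rpl38∆, 4 of 9 in rpl9a∆ and 4 of 9 in rps25∆. By time they comprised 5 of 12 at 24 h, 10 of 12 at 48 h and 7 of 12 at 72 h. The share over all genes is not given by strain or by time, so these splits are not read as particular to the members. The 4 strains were set against the same wt libraries, so these counts are not independent. Scaling by library size alone moved the median of all genes by up to 0.72 on the log2 scale in mRNA, in rps7∆ at 48 h, and fold changes are relative to the TMM centre. The counts depended on the divergent rpl9a∆ libraries, which enter the shared spread of the fit. Without either 48 h library of rpl9a∆, 26 of the 36 were called lower and 7 higher. The 7 were all 3 genes in rpl9a∆ at 24 h, FLD1 in rps25∆ at 72 h and FDH1 in rpl38∆, rpl9a∆ and rps25∆ at 72 h. The fits of 4 libraries at a time called 6 of these higher, all but FDH1 in rpl9a∆ at 24 h. The share over all genes in these refits is not given here. Their counts are therefore not read as a result about the members.

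**Figure D2:**
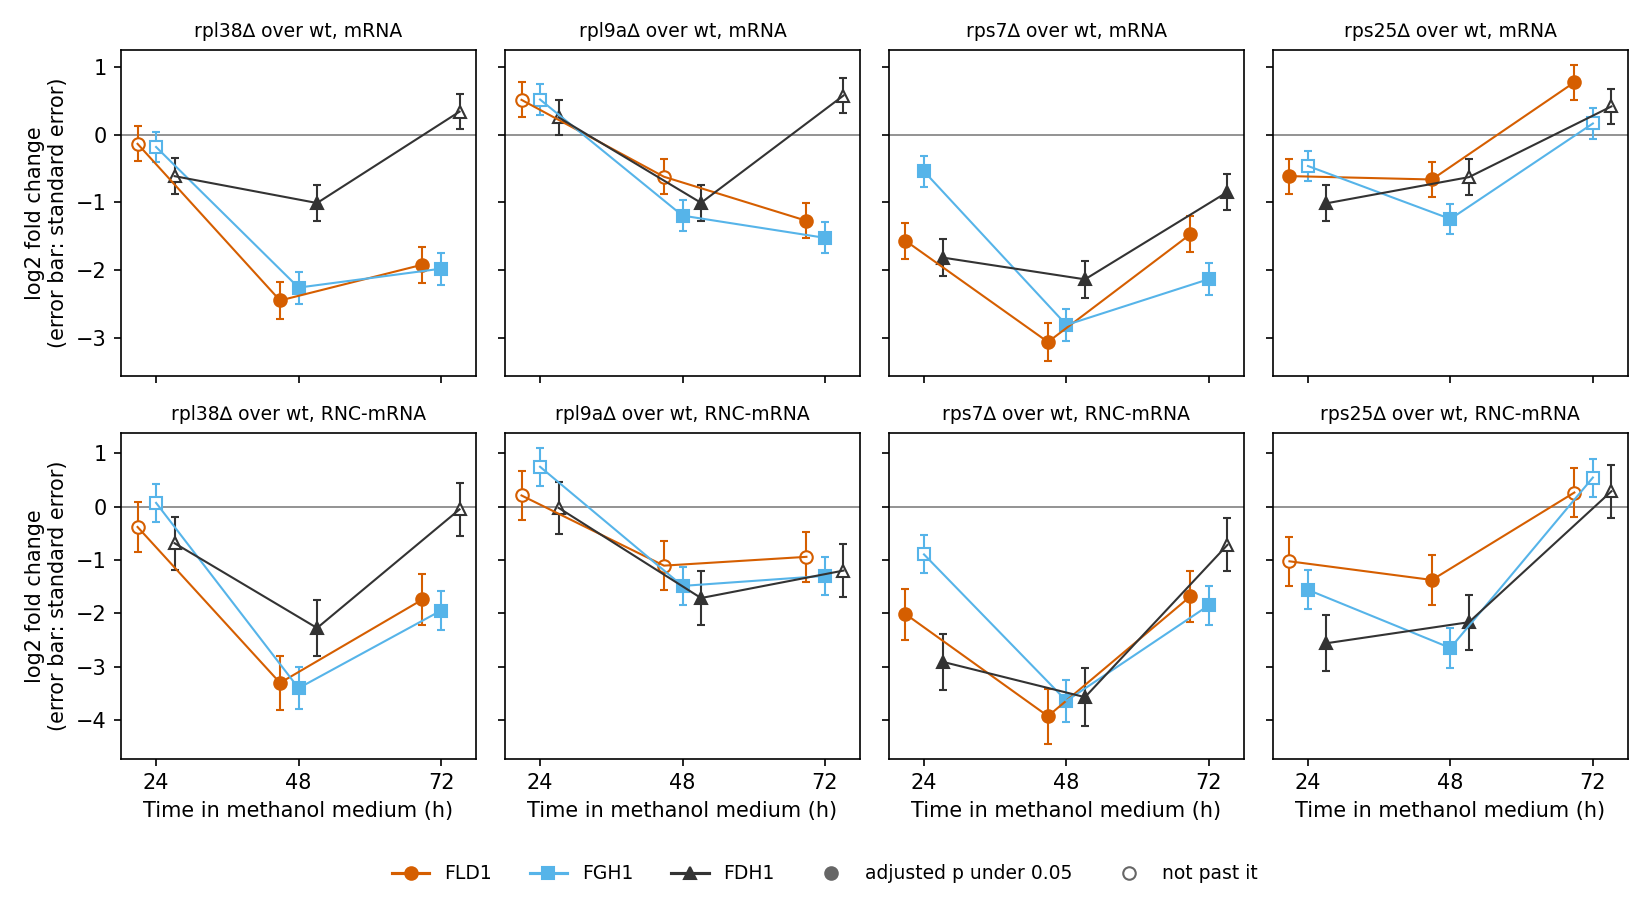
log2 fold change over wt (y axis, error bars are standard errors) of FLD1, FGH1 and FDH1 at 24, 48 and 72 h (x axis) in each deletion strain, for mRNA in the upper row and RNC-mRNA in the lower row. Filled symbols are past an adjusted p of 0.05. In the mRNA of rpl38∆ and rpl9a∆ FDH1 lies above the other two genes at 72 h, at 0.34 and 0.58.

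Averaged over the 3 times, FLD1 mRNA was at −1.50 (standard error 0.15, adjusted p = 1.66e-08) in rpl38∆, −0.46 (standard error 0.15, adjusted p = 0.0116) in rpl9a∆, −2.03 (standard error 0.15, adjusted p = 1.22e-10) for rps7∆ and −0.17 (standard error 0.15, adjusted p = 0.328) in rps25∆. The rpl9a∆ value was −0.78 without replicate 1 and −0.28 without replicate 2 at 48 h. FGH1 was lower in all 4, at −1.47 in rpl38∆, −0.73 in rpl9a∆, −1.83 for rps7∆ and −0.51 in rps25∆, with adjusted p of at most 0.00156. FDH1 was lower in rps7∆ (−1.60, adjusted p = 6.07e-09), and less so in rpl38∆ (−0.43, adjusted p = 0.016) and rps25∆ (−0.41, adjusted p = 0.0222). In rpl9a∆ it was not called (−0.057, adjusted p = 0.764). Without replicate 1 of rpl9a∆ at 48 h that value was −0.37, and without replicate 2 it was 0.12, each with 1 library left in that group. FDH1 in rps25∆ lost its call without replicate 2 at 24 h or replicate 1 at 48 h (highest adjusted p = 0.0523) and under library size alone (−0.21, adjusted p = 0.166).

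Of the 12 averaged mRNA differences 10 were called lower and 0 higher, against 33.7% of tests over all genes called lower and 35.5% called higher. By edgeR 0 of them lay above wt at an unadjusted p under 0.05, and DESeq2 called 0 higher. An exact two-sided permutation of strain labels within times on log2 CPM, whose smallest p is 0.00926, passed its adjustment over 24 tests in 5 of these 12. They were FLD1 and FGH1 in rpl38∆ and all 3 genes in rps7∆ (adjusted p = 0.0247 each). The permutation was not run on other genes, so this count has no share over all genes and is not read as particular to the members. For comparison, the 86 ribosomal protein genes of the study's list had median averaged mRNA fold changes of −0.92 in rpl38∆, −0.78 in rpl9a∆, −1.37 for rps7∆ and 0.15 in rps25∆. Of these genes 76 were called lower in rpl38∆, 76 in rpl9a∆, 80 for rps7∆ and 19 in rps25∆, where 38 were called higher. The median of all genes tested was 0.05 in rps7∆ and closer to 0 in the other strains.

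The deletion strains also differed from each other. Averaged over the times, all 3 mRNAs were lower in rps7∆ than in rps25∆, at −1.87 for FLD1, −1.31 for FGH1 and −1.19 for FDH1 (adjusted p of at most 7.25e-07). Between the large subunit deletions, rpl38∆ was below rpl9a∆ in FLD1 (−1.04, standard error 0.15, adjusted p = 9.39e-06) and FGH1 (−0.74, adjusted p = 9.71e-05). The FGH1 value was −0.47 without replicate 1 of rpl9a∆ at 48 h. FDH1 was at −0.37 (adjusted p = 0.0489), a call that was lost without that library (−0.046, adjusted p = 0.536) and with library size alone (−0.22, adjusted p = 0.177). In all, 15 of the 18 comparisons of a member between deletion strains passed, where 65.0% of tests over genes did. The call of FDH1 in rpl9a∆ over rps25∆ (0.35, adjusted p = 0.0499) was lost without any 1 of 26 libraries (highest adjusted p = 0.618). A direction hung on the scaling, as FGH1 was higher in rpl38∆ than in rps7∆ with TMM (0.35, adjusted p = 0.0199) and at −0.097 with library size alone.

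In rpl38∆ and rpl9a∆ the fold changes over time of FLD1 and FGH1 lay apart from that of FDH1, though no test compared the genes' courses. In rpl38∆ mRNA at 72 h against 24 h, FLD1 fell by 2.54 and FGH1 fell by 2.29 on the log2 scale, while FDH1 was at 0.29 (adjusted p = 0.321). In rpl9a∆ the values were −2.54 for FLD1, −2.54 for FGH1 and −0.34 for FDH1 (adjusted p = 0.248). Without either 48 h library of rpl9a∆ the FDH1 change passed (−0.33 and −0.30). The FLD1 and FGH1 changes in both strains had adjusted p of at most 5.67e-08. In rps7∆ FLD1 fell at 48 h (−1.72) and rose again at 72 h (1.06 against 48 h, adjusted p = 0.00251), and FGH1 stayed low (−2.09 at 72 h against 24 h). In rps25∆ FLD1 and FGH1 rose at 72 h against 48 h, by 0.91 and 0.80. In wt, of the 9 time comparisons of members, FLD1 at 72 h against 24 h alone passed (−0.75, adjusted p = 0.0329). The share over all genes is not given for wt alone, so this count is not read as particular to the members. Over all strains 24 of 45 time comparisons passed, where 47.0% of tests over genes did.

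Whether a strain's difference from wt itself changed between 24 and 72 h was tested as an interaction. In mRNA 16 of the 24 interactions of members passed, 9 of them for 72 h against 24 h and 7 for 48 h against 24 h. Of tests over all genes in these contrasts 46.5% passed. In rpl38∆ the 72 h interaction was −1.78 (standard error 0.37, adjusted p = 0.000358) for FLD1, −1.80 (standard error 0.32, adjusted p = 8.51e-05) for FGH1 and 0.95 (standard error 0.37, adjusted p = 0.0351) for FDH1. The difference from wt thus changed in the opposite direction for FDH1. FDH1 itself was not called between these times in rpl38∆ (0.29, adjusted p = 0.321) or in wt (−0.66, adjusted p = 0.0643). In rpl9a∆ it was −1.79 for FLD1, −2.04 for FGH1 and, not past the threshold, 0.32 for FDH1 (adjusted p = 0.461). That FDH1 value passed without either rpl9a∆ library at 48 h (0.33, adjusted p = 0.0287 without replicate 1, and 0.34, adjusted p = 0.0251 without replicate 2).

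The ratio of 2 members within a library does not depend on the scaling between libraries. In the mRNA of rpl38∆ the ratio of FDH1 to FLD1 per kilobase was 1.62 and 1.57 at 24 h, 6.58 and 6.66 at 48 h and 11.1 and 11.5 at 72 h. In rpl9a∆ it was 1.84 and 1.87, 1.86 and 1.89, and 8.81 and 8.27 in the same order of times, so the 48 h replicates that lay far apart in level lay close in this ratio. In rps7∆ it was 1.87 and 1.86, 4.49 and 4.79, and 3.64 and 3.66. The rps25∆ ratios lay between 1.66 and 2.64 and the wt ratios between 2.19 and 2.44. In mRNA at 24 h every deletion strain was below wt, and at 72 h rpl38∆, rpl9a∆ and rps7∆ were above it. In RNC-mRNA at 72 h the ratio was 7.27 and 2.21 in rpl38∆, 2.55 and 1.03 in rpl9a∆, 3.15 and 3.02 for rps7∆ and 1.45 and 1.76 in rps25∆, against 1.52 and 1.65 in wt, so that rpl9a∆ lay on both sides of wt there.

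In mRNA the ratio of FDH1 to FGH1 stood above wt in all 4 deletion strains at 72 h and below wt in all 4 at 24 h. At 72 h it was 31.5 and 30.2 in rpl38∆, 27.9 and 25.2 in rpl9a∆, 14.6 and 15.5 for rps7∆ and 7.16 and 7.53 in rps25∆, against 6.16 and 6.18 in wt. At 24 h it was 5.24 and 5.01 in rpl38∆, 5.69 and 5.80 in rpl9a∆, 2.73 and 2.996 for rps7∆, and 4.75 and 4.67 in rps25∆, against 6.82 and 6.99 in wt. In RNC-mRNA at 72 h it was 41.8 and 11.1 in rpl38∆, 9.35 and 7.32 in rpl9a∆, 15.7 and 17.3 for rps7∆ and 6.43 and 6.11 in rps25∆, against 6.01 and 9.21 in wt, so rpl9a∆ and rps25∆ overlapped wt. FGH1 to FLD1 had a narrower range than the other ratios over all 30 mRNA libraries, from 0.235 to 0.687. Both ends of that range lay in rps7∆, where it fell from 0.687 and 0.622 at 24 h to 0.249 and 0.235 at 72 h.

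**Figure D3:**
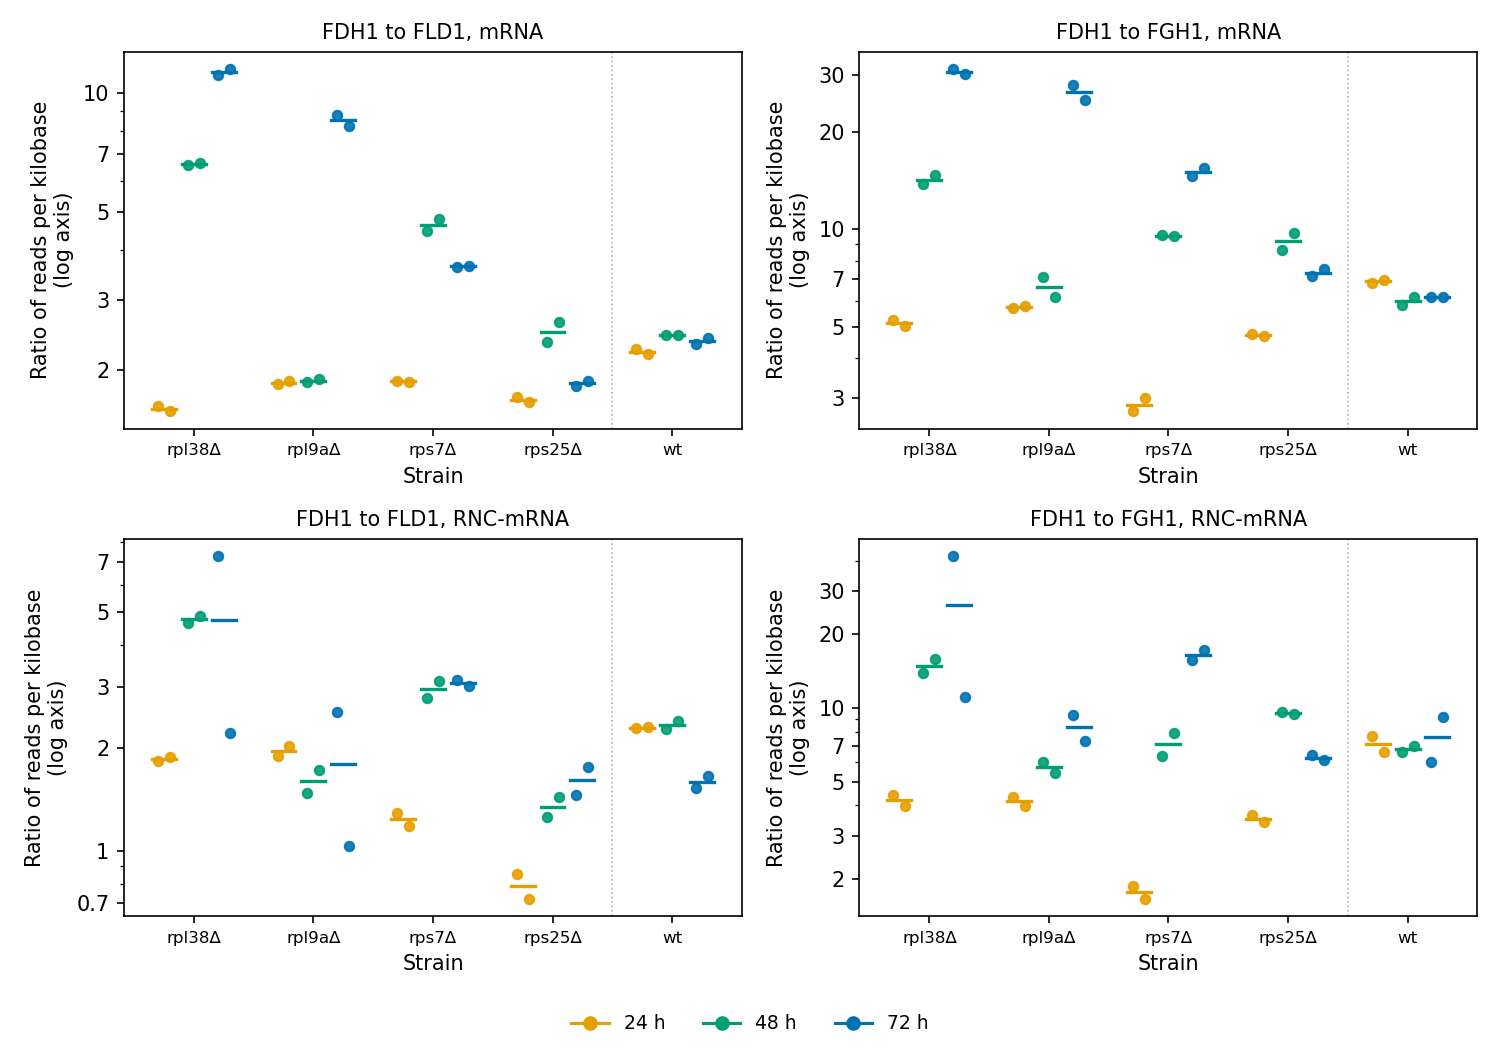
Ratio of reads per kilobase of FDH1 to FLD1 (left) and of FDH1 to FGH1 (right) within each library (y axis, log axis), by strain (x axis) and time (colour), in mRNA (upper row) and RNC-mRNA (lower row). Points are the 2 libraries of a group and bars their mean. In mRNA at 72 h the FDH1 to FLD1 points of rpl38∆ lie at 11.1 and 11.5, against 2.33 and 2.41 in wt.

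At a single time 2 libraries stand against 2, and an exact permutation cannot reach 0.05. Averaged over the times, the exact two-sided permutation of the FDH1 to FLD1 log2 ratio in mRNA gave a difference from wt of 1.07 (p = 0.0556, adjusted p = 0.19) in rpl38∆, 0.40 (p = 0.333, adjusted p = 0.5) in rpl9a∆, 0.43 (p = 0.0556, adjusted p = 0.19) for rps7∆ and −0.24 (p = 0.037, adjusted p = 0.19) in rps25∆. In rpl38∆ the differences at 24, 48 and 72 h were −0.48, 1.44 and 2.26, and the average sets these opposite signs against each other. None of the 24 ratio tests between members passed the adjustment by this exact permutation, and 3 had an unadjusted p under 0.05.

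RNC-mRNA, the mRNA recovered with ribosomes, had a wider spread between replicates. Averaged over the times, its TMM-scaled fold changes lay below wt as in mRNA, not all past the threshold. FDH1 at 72 h did not keep its mRNA direction in every strain. In rpl38∆, FLD1 RNC-mRNA was at 8076 and 7726 CPM at 24 h, 1519.6 and 1548 at 48 h, and 2245 and 1731 at 72 h. The rpl9a∆ strain was at 10978 and 10371 CPM at 24 h, 8697 and 2979 at 48 h, and 1381 and 4703 at 72 h. At 24 h rpl9a∆ overlapped wt and rpl38∆ lay below it, and at 48 and 72 h every library of both strains lay below wt. The rps7∆ strain was at 3164 and 3079 CPM at 24 h, 1379 and 1544 at 48 h, and 3504 and 2684 at 72 h, and rps25∆ at 6453 and 6043 CPM at 24 h, 5090.3 and 5343 at 48 h, and 7391 and 8364 at 72 h. The wt strain was at 10105 and 10392 CPM at 24 h, 10197 and 10083 at 48 h, and 4986 and 5279.7 at 72 h. FLD1 in wt thus held about the same level at 24 and 48 h and a lower one at 72 h.

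FGH1 RNC-mRNA in rpl38∆ was at 2689 and 2925 CPM at 24 h, 405 and 379 at 48 h, and 313 and 277 at 72 h. Values in rpl9a∆ were 3834 and 4224 CPM at 24 h, 1713 and 755 at 48 h, and 302 and 529.5 at 72 h. At 24 h rpl9a∆ lay above wt and rpl38∆ overlapped it, and at 48 and 72 h both lay below. Values in rps7∆ were 1749 and 1764 CPM at 24 h, 485 and 492 at 48 h, and 564 and 376 at 72 h, and in rps25∆ 1209 and 1027 CPM at 24 h, 532 and 649 at 48 h, and 1337 and 1928 at 72 h. Values in wt were 2414 and 2907 CPM at 24 h, 2792 and 2764 at 48 h, and 1011 and 760.2 at 72 h. In rps25∆ the order against wt turned round between 48 and 72 h.

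FDH1 RNC-mRNA in rpl38∆ was at 14468 and 14219 CPM at 24 h, 6899.9 and 7348 at 48 h, and 15972 and 3739 at 72 h. For rpl9a∆ they read 20304 and 20490.4 CPM at 24 h, 12516 and 5009 at 48 h, and 3447 and 4730.0 at 72 h. Here both rpl9a∆ libraries at 72 h lay below wt, unlike in mRNA. In mRNA the rpl38∆ libraries at 72 h lay above wt and those of rps7∆ below it. In RNC-mRNA those of rpl38∆ lay on both sides of wt and those of rps7∆ overlapped it. For rps7∆ they read 3974 and 3562 CPM at 24 h, 3777 and 4736 at 48 h, and 10811 and 7944 at 72 h, and for rps25∆ 5376 and 4267 CPM at 24 h, 6225 and 7509.5 at 48 h, and 10487 and 14377 at 72 h. For wt they read 22547 and 23395 CPM at 24 h, 22576 and 23655 at 48 h, and 7414 and 8539 at 72 h. Among host genes by RPKM in wt RNC-mRNA, FDH1 stood at 1 to 2 at 24 and 48 h and at 14 to 19 at 72 h.

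**Figure D4:**
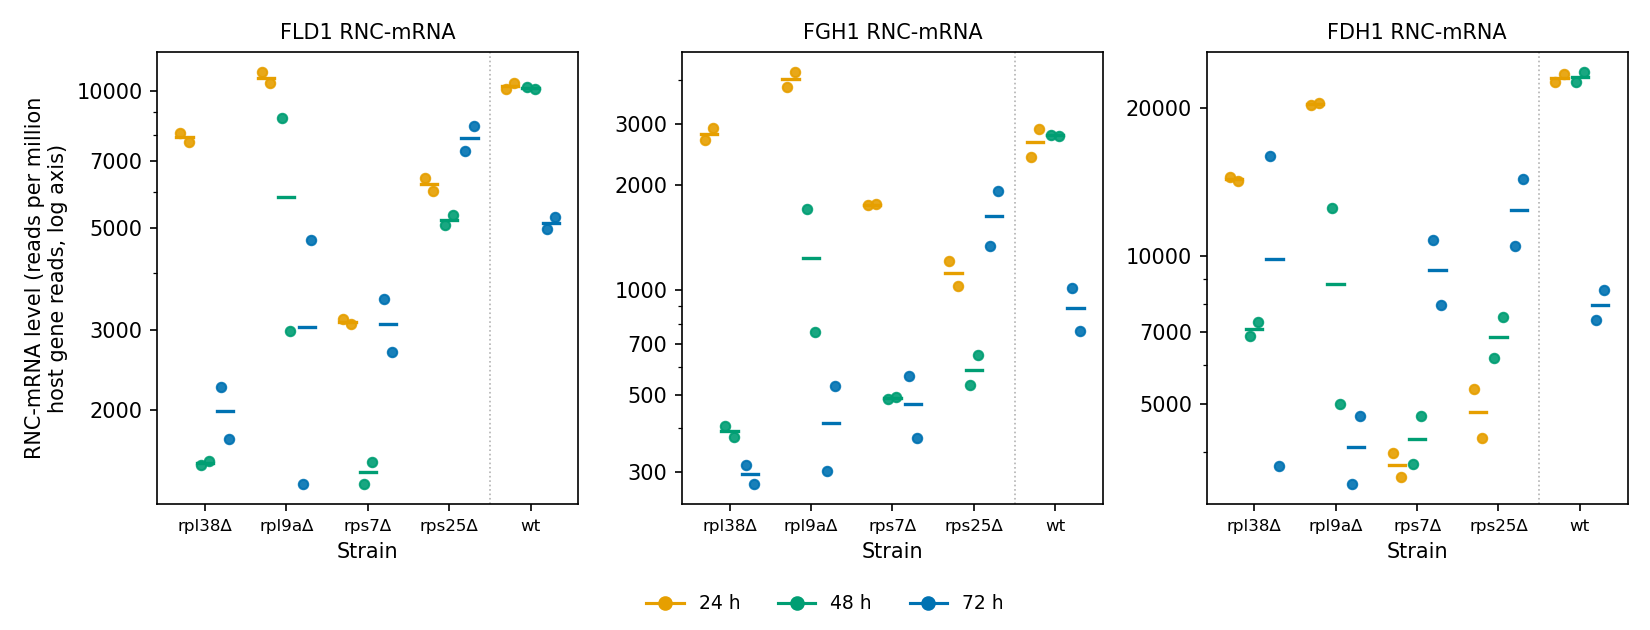
RNC-mRNA level of FLD1, FGH1 and FDH1 (y axis, reads per 1000000 host gene reads, log axis) by strain (x axis) and time (colour), with points for the 2 libraries of a group and bars for their mean. At 48 h every FDH1 point of the deletion strains lies under both wt points (22576 and 23655), and the 2 points of rpl38∆ at 72 h lie far apart (15972 and 3739).

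Of the 36 RNC-mRNA comparisons with wt 20 were called lower and 0 higher, against 15.9% of tests over genes called lower and 15.8% called higher. By edgeR 1 of them lay above wt at an unadjusted p under 0.05, and DESeq2 called 0 higher, while edgeR with library size alone called 1. The 20 comprised 7 of 9 in rps7∆, 5 of 9 in rpl38∆, 5 of 9 in rps25∆ and 3 of 9 in rpl9a∆. By time, 11 of 12 at 48 h were called lower. The share over all genes is not given by strain or by time here either. At 48 h the fold changes of FDH1 were −2.27 (standard error 0.52, adjusted p = 0.00127) in rpl38∆, −1.71 (adjusted p = 0.0243) in rpl9a∆, −3.57 (adjusted p = 2.75e-05) for rps7∆ and −2.16 (adjusted p = 0.00363) in rps25∆. In rpl9a∆ the 48 h value was −2.61 without replicate 1 and −1.16 without replicate 2, the last not past the threshold, and FGH1 lost its call without replicate 2 as well (−0.98, adjusted p = 0.0934). With all libraries FDH1 was not called at 72 h in any strain. Its value in rpl38∆ was −0.052 with both libraries, −1.55 (adjusted p = 0.0269) without replicate 1 and 0.66 (adjusted p = 0.244) without replicate 2. At 72 h FGH1 was lower in rpl9a∆ (−1.30, adjusted p = 0.0188), a call lost without either wt library or without replicate 1 of rpl9a∆ at that time (highest adjusted p = 0.106). Without replicate 2 of rpl9a∆, which left 1 library in that group, FLD1 was at −2.27 and FDH1 at −1.59. At 72 h FLD1 and FGH1 were also lower in rpl38∆ (−1.74 and −1.95) and rps7∆ (−1.68 and −1.85), with adjusted p of at most 0.00612.

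Averaged over the times, 11 of 12 RNC-mRNA differences were called lower and 0 higher, against 22.5% and 24.4% of tests over genes. In edgeR 0 of them lay above wt at an unadjusted p under 0.05, and DESeq2 called 0 higher. The values for FLD1, FGH1 and FDH1 were −2.54, −2.13 and −2.40 in rps7∆, and −1.81, −1.76 and −1.0 in rpl38∆ (adjusted p of at most 0.00569). Without replicate 1 of rpl38∆ at 72 h its FDH1 value was −1.51. In rps25∆ they were −0.71 (adjusted p = 0.0358), −1.22 and −1.48, the largest fall being that of FDH1, and FLD1 lost its call without any 1 of 11 libraries (highest adjusted p = 0.0831) and with library size alone (−0.36). In rpl9a∆ FLD1 was not called (−0.61, adjusted p = 0.0955), while FGH1 (−0.68, adjusted p = 0.0183) and FDH1 (−0.98, adjusted p = 0.0151) were. FGH1 lost its call without replicate 2 of wt at 24 h (adjusted p = 0.0515). Without replicate 2 of rpl9a∆ at 72 h, which left 1 library in that group, FLD1 was at −1.05, FGH1 at −0.88 and FDH1 at −1.11. The exact permutation passed in 4 of 12 (adjusted p = 0.0247 each), namely FLD1 in rpl38∆ and rps7∆, FGH1 in rps7∆ and FDH1 in rpl9a∆. Here too it was not run on other genes, so the count has no share over all genes beside it.

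Between deletion strains, 12 of the 18 averaged RNC-mRNA comparisons of members passed, where 47.6% of tests over genes did. Against rps25∆, rps7∆ was at −1.83 for FLD1 (adjusted p = 1.47e-05), −0.91 for FGH1 (adjusted p = 0.00105) and −0.92 for FDH1 (adjusted p = 0.0109). Over time, 20 of 45 RNC-mRNA comparisons passed, where 26.0% of tests over genes did. FGH1 fell at 72 h against 24 h in rpl38∆ (−3.70), rpl9a∆ (−3.72), rps7∆ (−2.63) and wt (−1.68, adjusted p = 0.00384). In rps25∆ it was at 0.42 (adjusted p = 0.453). Of the interactions of strain and time, 10 of 24 passed in RNC-mRNA, where 21.8% of tests over genes did. FDH1 moved up relative to wt at 72 h against 24 h in rps7∆ (2.19, adjusted p = 0.0206) and rps25∆ (2.84, adjusted p = 0.00805).

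The RNC-mRNA of a gene relative to its mRNA was compared in 1 fit over all 60 libraries. In wt, averaged over the times, the 3 genes were enriched in RNC-mRNA, at 1.40 (standard error 0.22, adjusted p = 6.99e-07) for FLD1, 1.03 (standard error 0.17, adjusted p = 2.02e-06) for FGH1 and 1.20 (standard error 0.23, adjusted p = 2.09e-05) for FDH1. Of all genes 37.3% were called higher in this comparison, and Phy was at 0.16 (adjusted p = 0.547). With library size alone the median over genes moved by −0.67, so the size of this enrichment rests on the scaling, and at 72 h FGH1 and FDH1 were then below 0. By time, the wt enrichment of FDH1 was 1.52 at 24 h, 1.50 at 48 h and 0.56 at 72 h, the last not past the threshold (adjusted p = 0.222), and FGH1 at 72 h did not pass either (0.29).

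Relative to wt, the RNC-mRNA over mRNA of members was lower in 2 of the 12 strain averages, both in rps25∆. These were FDH1 (−1.09, standard error 0.33, adjusted p = 0.019) and FGH1 (−0.72, standard error 0.24, adjusted p = 0.0392), and of tests over all genes 5.76% were called lower and 7.21% higher. FGH1 lost its call without any 1 of 18 libraries (highest adjusted p = 0.0888), and for FDH1 the values without 1 library ran from −1.18 to −1.01 (highest adjusted p = 0.045). FDH1 was at −0.57 (adjusted p = 0.261) in rpl38∆, −0.90 (adjusted p = 0.0871) in rpl9a∆ and −0.78 (adjusted p = 0.0956) in rps7∆. With mRNA and RNC-mRNA libraries of the same strain, time and number blocked as 1 culture, FDH1 was called lower in rpl9a∆ (−0.90, adjusted p = 0.03) and rps7∆ (−0.79, adjusted p = 0.0291) as well. In the unblocked fit it was called lower in rpl38∆ without replicate 1 of rpl38∆ RNC-mRNA at 72 h (−1.05), and also in rpl9a∆ and rps7∆ without either of the rpl38∆ RNC-mRNA libraries of that time (lowest adjusted p = 0.0202 in rpl9a∆ and 0.0324 in rps7∆ over the libraries left out). FLD1 lay between −0.56 and −0.13 and was called in none.

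At single times 2 of 36 passed, both lower (by edgeR 0 were higher at an unadjusted p under 0.05, and DESeq2 called 0 higher), where 3.06% of tests over genes were called lower and 4.21% higher. FDH1 in rpl9a∆ at 72 h was lower, at −1.75 (standard error 0.57, adjusted p = 0.0222), and −2.10 (adjusted p = 0.0175) without the library that stood apart. FGH1 in rps25∆ at 48 h was lower, at −1.47 (standard error 0.43, adjusted p = 0.0277). The calls were lost when 1 of 5 libraries for FDH1 and 1 of 7 for FGH1 was left out (highest adjusted p = 0.0814 and 0.129). FDH1 in rpl38∆ at 72 h, not called with all libraries (−0.35), was lower without replicate 1 of its RNC-mRNA (−1.78, adjusted p = 0.0183).

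**Figure D5:**
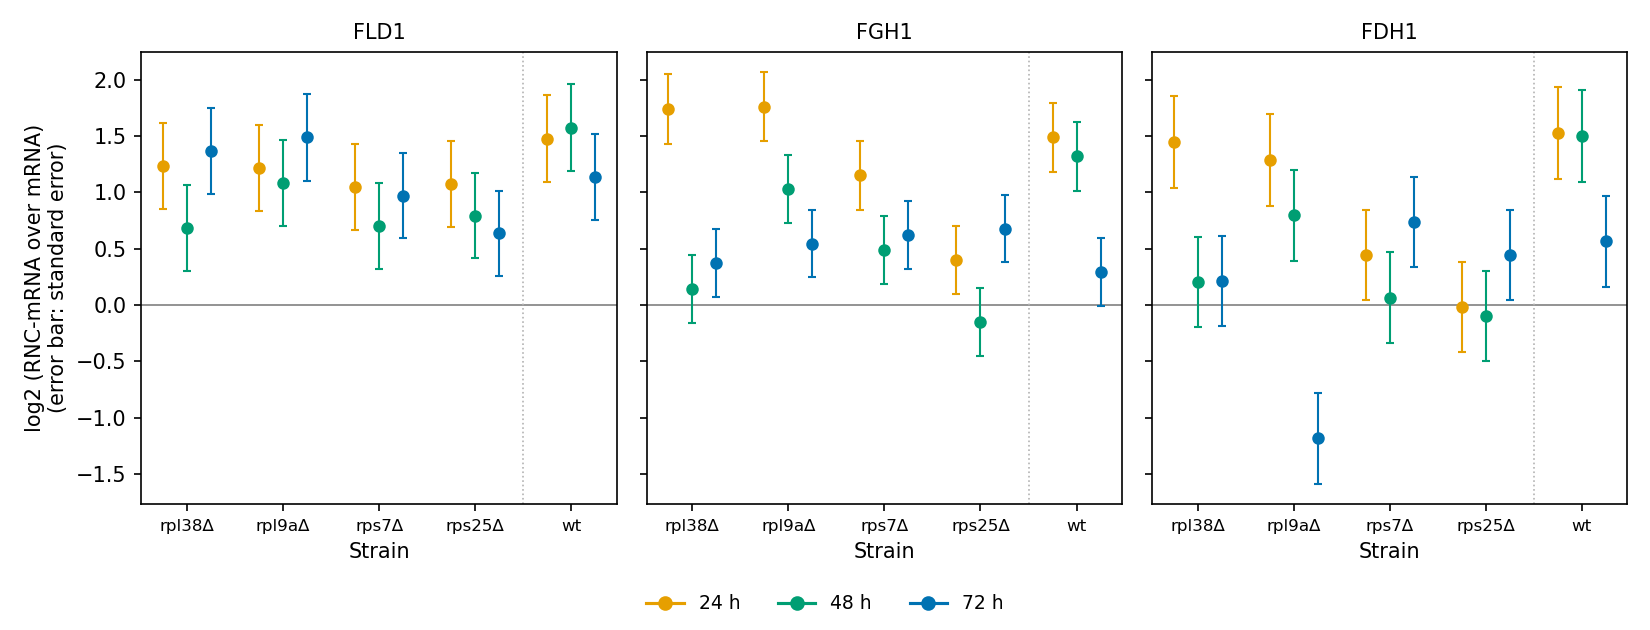
log2 of RNC-mRNA over mRNA (y axis, error bars are standard errors of the fit over 60 libraries) of FLD1, FGH1 and FDH1 by strain (x axis) and time (colour). In wt FDH1 lies at 1.52 at 24 h, while in rps25∆ it lies at −0.016, and the lowest point of FDH1 is that of rpl9a∆ at 72 h (−1.18).

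Phy lies behind the promoter of AOX1, an alcohol oxidase gene that makes formaldehyde from methanol, and was set beside the members. In rpl38∆ mRNA there were 0.207 and 0.193 FLD1 reads per Phy read at 24 h, 0.0971 and 0.101 at 48 h and 0.0995 and 0.124 at 72 h, against 2.03 and 2.22, 1.38 and 1.48, and 1.39 and 1.35 in wt. In rpl9a∆ it was 0.240 and 0.249, 0.194 and 0.135, and 0.146 and 0.162. In rps7∆ it was 0.412 and 0.484 at 24 h, and 1.28 and 1.44 at 72 h, where the wt libraries lay between those of rps7∆. Averaged over the times, 20 of the 24 exact permutation tests of a member's ratio to Phy passed the adjustment, all of them lower than wt. The 4 that did not were FDH1 in rps7∆ mRNA (mean log2 difference −0.42, exact permutation p = 0.352, adjusted p = 0.352) and all 3 genes in rps7∆ RNC-mRNA. The averaged mRNA fold change of Phy itself over wt was 2.13 in rpl38∆, 2.64 in rpl9a∆, −1.17 (adjusted p = 1.83e-08) for rps7∆ and 1.15 in rps25∆, and these ratios hold both terms. A rise of Phy alone lowers the ratio of any host gene to it. Ratios of other host genes to Phy were not tested, so the count of 20 is not read as a result about the members.

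Across the 15 group means in mRNA, log2 levels of FLD1 and FGH1 had a Pearson r of 0.94, those of FLD1 and FDH1 0.63 and those of FGH1 and FDH1 0.53. In the order of 5044 host genes by likeness to FLD1, FGH1 would stand at 11 and FDH1 at 774. In RNC-mRNA the same r were 0.92, 0.85 and 0.80. The host genes most like the 3 members in mRNA were Pipas_chr1-4_0459 (mean r 0.85) and Pipas_chr3_0841 (0.85), which the files give without names. These are descriptions over means that share libraries within a group.

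By mean level, the order of the 15 groups was led by rps25∆ at 72 h and rpl9a∆ at 24 h for FLD1 mRNA, by wt at 48 h and rpl9a∆ at 24 h for FGH1 and by rpl9a∆ and rps25∆ at 72 h for FDH1, and in each case the libraries of these leading groups overlapped. The lowest groups were rps7∆ at 48 h for FLD1, rpl38∆ at 72 h for FGH1 and rps7∆ at 24 h for FDH1. The FLD1 libraries of rps7∆ at 48 h overlapped those of rpl38∆ at 48 and 72 h, whereas for FDH1 both rps7∆ libraries at 24 h lay below those of rps7∆ at 48 h. The divergent rpl9a∆ libraries at 48 h spanned several neighbours for FLD1 and FDH1. For FDH1 the lower of them, at 3661 CPM, lay under both rps7∆ libraries at 24 h.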

How the data were processed

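Whole-number counts of reads per gene were deposited by the authors for 30 mRNA and 30 RNC-mRNA libraries, with RPKM beside them. The authors treated cells with cycloheximide, selected polyadenylated RNA, sequenced it on an Illumina HiSeq instrument and quantified genes with more than 10 mapped reads; base calls came from bcl2fastq 2.17 per the labels, and the genome build, aligner and counting program are not named by the sources used here. Deposited RPKM values were recomputed from the counts and differed by at most 0.000117%. Counts of Phy were deposited by the authors in a separate table and entered each fit as 1 more gene.

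Samples were grouped by strain and time from their titles. Each gene that exceeded 10 reads in 2 or more libraries was fitted with edgeR 4.0.16 (R 4.3.3), TMM scaling and the quasi-likelihood test on 15 group means per assay, or on 30 group means over 60 libraries for RNC-mRNA relative to mRNA. Adjusted p is Benjamini-Hochberg over all genes. Exact two-sided permutations moved strain labels within times (216 arrangements). As the labels do not tie replicates to separate cultures, p-values measure the spread between these samples, which may be technical. Alternatives were library size alone, DESeq2 1.42.0 size factors and Wald test, other filters, a replicate block, a block by culture for RNC-mRNA over mRNA (chosen after seeing the data), fits of 4 libraries and leaving out each library. The genes named are the 3 members, Phy and the 2 host genes with the highest mean r with the members over the 15 mRNA means. The rule for the members used IDs alone, but members, lists and tests were chosen with earlier results of these data known. No genome matching the gene IDs was used, and sequences and coordinates are not given here.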

Additional observations from a re-analysis of the deposited data

Results flagged for a closer look

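The difference between a deletion strain and wt changed with time, by edgeR's test of the interaction, in 26 of 48 cases, 16 in mRNA and 10 in RNC-mRNA. Of tests over all genes in the same contrasts 46.5% passed in mRNA and 21.8% in RNC-mRNA. Values are log2 differences between the later fold change over wt and that at 24 h.

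In mRNA of rpl38∆ they were −2.31 for FLD1 and −2.08 for FGH1 at 48 h, and −1.78 for FLD1, −1.80 for FGH1 and 0.95 for FDH1 at 72 h. In mRNA of rpl9a∆ they were −1.14 for FLD1, −1.71 for FGH1 and −1.26 for FDH1 at 48 h, and −1.79 for FLD1 and −2.04 for FGH1 at 72 h. In mRNA of rps7∆ they were −1.50 for FLD1 and −2.27 for FGH1 at 48 h, and −1.59 for FGH1 and 0.97 for FDH1 at 72 h. In mRNA of rps25∆ they were 1.39 for FLD1 and 1.43 for FDH1 at 72 h.

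In RNC-mRNA of rpl38∆ they were −2.92 for FLD1 and −3.47 for FGH1 at 48 h, and −2.02 for FGH1 at 72 h. In RNC-mRNA of rpl9a∆ they were −2.23 for FGH1 at 48 h, and −2.04 for FGH1 at 72 h. In RNC-mRNA of rps7∆ they were −1.91 for FLD1 and −2.74 for FGH1 at 48 h, and 2.19 for FDH1 at 72 h. In RNC-mRNA of rps25∆ they were 2.10 for FGH1 and 2.84 for FDH1 at 72 h.

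The difference was negative for FLD1 and FGH1 in rpl38∆, rpl9a∆ and rps7∆ wherever the test passed. It was positive for FDH1 at 72 h in the mRNA of rpl38∆, rps7∆ and rps25∆ and in the RNC-mRNA of rps7∆ and rps25∆, and negative for FDH1 in rpl9a∆ mRNA at 48 h.

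The rpl9a∆ values at 48 h rest on replicates that lay far apart. In mRNA they were −2.10 for FLD1, −2.51 for FGH1, −2.21 for FDH1 without replicate 1 at 48 h and −0.56 for FLD1, −1.20 for FGH1, −0.69 for FDH1 without replicate 2. In RNC-mRNA the FGH1 value was −3.03 without replicate 1 and −1.72 without replicate 2. All of these passed the test.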

How the results depend on the processing

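Of the 334 results recomputed with library size alone, 273 kept their direction and side of the threshold, 25 changed sign, 21 lost and 13 gained a call and 2 counts moved. With DESeq2 size factors in edgeR 330 were kept, with the DESeq2 Wald test 303 (27 gained a call), and without a filter 333. The fold change of FGH1 between rpl38∆ and rps7∆ in mRNA is the value with a call that changed sign among these settings. The cause of these moves was not tested.

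Under library size alone, the sign turned round for FDH1, rpl9a∆ vs wt 24 h, mRNA at −0.084, FLD1, rps25∆ vs wt (mean), mRNA at 0.034, FDH1, rpl9a∆ 72 h vs 24 h, mRNA at 0.16, FDH1, rps7∆ 48 h vs 24 h, mRNA at 0.17, FGH1, rps7∆ 72 h vs 48 h, mRNA at −0.092, FDH1, wt 48 h vs 24 h, mRNA at 0.018 and FDH1, rps7∆ vs wt 48 h less 24 h, mRNA at 0.15. Under library size alone, the sign turned round for FGH1, rpl38∆ vs rps7∆ (mean), mRNA at −0.097, FDH1, rpl38∆ vs wt 72 h, RNC-mRNA at 0.30, FDH1, rps7∆ vs wt 72 h, RNC-mRNA at 0.23, FDH1, rps7∆ 48 h vs 24 h, RNC-mRNA at 0.18, FGH1, rps7∆ 72 h vs 48 h, RNC-mRNA at −0.058, FGH1, wt 48 h vs 24 h, RNC-mRNA at 0.061 and FDH1, wt 48 h vs 24 h, RNC-mRNA at 0.0078. Under library size alone, the sign turned round for FDH1, rps7∆ vs wt 48 h less 24 h, RNC-mRNA at 0.17, FDH1, rpl38∆ vs rpl9a∆ (mean), RNC-mRNA at 0.16, FGH1, rpl38∆ vs rps7∆ (mean), RNC-mRNA at −0.12, FLD1, rpl9a∆ vs rps25∆ (mean), RNC-mRNA at −0.17, FDH1, RNC-mRNA over mRNA, rpl38∆ vs wt 24 h at 0.051, FLD1, RNC-mRNA over mRNA, rps7∆ vs wt 72 h at 0.26 and FDH1, RNC-mRNA over mRNA, rps25∆ vs wt 72 h at 0.13. Under library size alone, the sign turned round for FLD1, RNC-mRNA over mRNA, rpl9a∆ vs wt (mean) at 0.063, FGH1, RNC-mRNA over mRNA, rps7∆ vs wt (mean) at 0.011, FGH1, RNC-mRNA over mRNA, wt 72 h at −0.44 and FDH1, RNC-mRNA over mRNA, wt 72 h at −0.18. Under library size alone, calls were lost for FDH1, rps25∆ vs wt (mean), mRNA at −0.21, FLD1, rps25∆ vs wt (mean), RNC-mRNA at −0.36 and FGH1, RNC-mRNA over mRNA, rps25∆ vs wt (mean) at −0.56. Under library size alone, the members called higher than wt numbered 2 in mRNA and 1 in RNC-mRNA. Under the DESeq2 Wald test, the sign turned round for FLD1, rps25∆ vs wt 48 h less 24 h, mRNA at 0.017, FDH1, rpl38∆ vs rps25∆ (mean), mRNA at 0.00042 and FDH1, rpl9a∆ vs wt 24 h, RNC-mRNA at 0.035. Under the DESeq2 Wald test, calls were gained for FLD1, rpl9a∆ vs wt (mean), RNC-mRNA at −0.63, FDH1, RNC-mRNA over mRNA, rpl9a∆ vs wt (mean) at −0.93 and FDH1, RNC-mRNA over mRNA, rps7∆ vs wt (mean) at −0.82. Under the DESeq2 Wald test, the members called higher than wt numbered 3 in mRNA. Under DESeq2 size factors in edgeR, the sign turned round for FLD1, rps25∆ vs wt 48 h less 24 h, mRNA at 0.017, FDH1, rpl38∆ vs rps25∆ (mean), mRNA at 0.00041 and FDH1, rpl9a∆ vs wt 24 h, RNC-mRNA at 0.035. Under TMM-scaled CPM in the exact permutation, the sign turned round for FLD1, rps25∆ vs wt (mean), mRNA at −0.17. Under TMM-scaled CPM in the exact permutation, calls were gained for FDH1, rps7∆ vs wt (mean), RNC-mRNA at −2.41. Under the stricter filter, which asks every library for over 10 reads, the sign turned round for FDH1, rpl9a∆ vs wt 24 h, RNC-mRNA at 0.026. Under fits of 4 libraries, the sign turned round for FDH1, rpl9a∆ vs wt 24 h, RNC-mRNA at 0.0073. Under fits of 4 libraries, the members called higher than wt numbered 6 in mRNA and 1 in RNC-mRNA. The share over all genes called higher is not given for these alternative settings, so such counts are not read as a result about the members. Under a replicate block by culture, chosen after seeing the data, calls were gained for FDH1, RNC-mRNA over mRNA, rpl9a∆ vs wt (mean) at −0.90 and FDH1, RNC-mRNA over mRNA, rps7∆ vs wt (mean) at −0.79.

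Leaving out each library in turn gave FDH1, rpl9a∆ vs wt (mean), mRNA −0.37 to 0.12, FLD1, rps25∆ vs wt (mean), mRNA −0.19 to −0.14, FDH1, rps25∆ vs wt (mean), mRNA −0.46 to −0.37, FLD1, rpl38∆ 72 h vs 48 h, mRNA −0.067 to 0.059, FGH1, rps7∆ 72 h vs 48 h, mRNA −0.028 to 0.15, FLD1, rps25∆ vs wt 48 h less 24 h, mRNA −0.14 to 0.086, FDH1, rpl38∆ vs rps25∆ (mean), mRNA −0.056 to 0.036 and FGH1, rpl38∆ vs wt 24 h, RNC-mRNA −0.063 to 0.22. It also gave FDH1, rpl38∆ vs wt 72 h, RNC-mRNA −1.55 to 0.66, FDH1, rpl9a∆ vs wt 24 h, RNC-mRNA −0.055 to 0.025, FDH1, rps25∆ vs wt 72 h, RNC-mRNA −0.0055 to 0.53, FLD1, rpl9a∆ vs wt (mean), RNC-mRNA −1.05 to −0.39, FGH1, rpl9a∆ vs wt (mean), RNC-mRNA −0.94 to −0.51, FLD1, rps25∆ vs wt (mean), RNC-mRNA −0.76 to −0.67, FDH1, rpl38∆ 72 h vs 48 h, RNC-mRNA −0.71 to 1.45 and FLD1, rpl9a∆ 72 h vs 48 h, RNC-mRNA −2.09 to 0.30. It also gave FGH1, rps7∆ 72 h vs 48 h, RNC-mRNA −0.25 to 0.54, FGH1, wt 48 h vs 24 h, RNC-mRNA −0.21 to 0.071, FDH1, rpl38∆ vs wt 72 h less 24 h, RNC-mRNA −0.89 to 1.34, FDH1, rpl38∆ vs rpl9a∆ (mean), RNC-mRNA −0.52 to 0.27, FLD1, rpl9a∆ vs rps25∆ (mean), RNC-mRNA −0.34 to 0.33, FGH1, RNC-mRNA over mRNA, rpl38∆ vs wt 72 h −0.045 to 0.22, FDH1, RNC-mRNA over mRNA, rpl38∆ vs wt 72 h −1.78 to 0.35 and FLD1, RNC-mRNA over mRNA, rpl9a∆ vs wt 48 h −1.52 to 0.46. It also gave FGH1, RNC-mRNA over mRNA, rpl9a∆ vs wt 48 h −1.06 to 0.49, FDH1, RNC-mRNA over mRNA, rpl9a∆ vs wt 48 h −1.58 to 0.23, FLD1, RNC-mRNA over mRNA, rpl9a∆ vs wt 72 h −0.93 to 1.02, FGH1, RNC-mRNA over mRNA, rpl9a∆ vs wt 72 h −0.32 to 0.67, FLD1, RNC-mRNA over mRNA, rps7∆ vs wt 72 h −0.49 to 0.096, FGH1, RNC-mRNA over mRNA, rps7∆ vs wt 72 h −0.12 to 0.67, FDH1, RNC-mRNA over mRNA, rps7∆ vs wt 72 h −0.19 to 0.46 and FDH1, RNC-mRNA over mRNA, rps25∆ vs wt 72 h −0.41 to 0.12. It also gave FDH1, RNC-mRNA over mRNA, rpl38∆ vs wt (mean) −1.05 to −0.34, FLD1, RNC-mRNA over mRNA, rpl9a∆ vs wt (mean) −0.56 to 0.18, FGH1, RNC-mRNA over mRNA, rpl9a∆ vs wt (mean) −0.18 to 0.34, FDH1, RNC-mRNA over mRNA, rpl9a∆ vs wt (mean) −1.19 to −0.58, FDH1, RNC-mRNA over mRNA, rps7∆ vs wt (mean) −0.90 to −0.68, FGH1, RNC-mRNA over mRNA, rps25∆ vs wt (mean) −0.83 to −0.63, FGH1 to FLD1, ratio, rpl38∆ vs wt (mean), RNC-mRNA −0.027 to 0.14 and FGH1 to FLD1, ratio, rpl9a∆ vs wt (mean), RNC-mRNA −0.12 to 0.20. The members called higher than wt in mRNA then numbered 0 to 7, at 0 without any 1 of the wt or rps25∆ libraries at 72 h and at 7 without either rpl9a∆ library at 48 h. These counts also stand without the share over all genes and are not read as a result about the members.

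Replicate numbers were not taken to pair the strains, since deviations of same-numbered libraries of a deletion strain and wt had r of −0.0889 to 0.187 in mRNA (3 of 12 over 0.1) and −0.145 to 0.101 in RNC-mRNA (1 of 12). A replicate block left 330 of 334 results on their side of the threshold and 4 lost a call. For FLD1 in rpl38∆ (mean, mRNA) the block gave −1.50. Each sample was divided for both assays by the study's methods, but no label says that the numbers of the assays match, and same-numbered mRNA and RNC-mRNA libraries had r of −0.224 to 0.874 (4 of 15 over 0.1).

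With 2 libraries a group the spread rests on all groups together, and single times have no exact test that can reach 0.05. The biological coefficient of variation of the members was 16.0 to 18.2% in mRNA and 25.2 to 32.9% in RNC-mRNA, so smaller changes in RNC-mRNA can be missed. Leaving out a library was not run for RNC-mRNA over mRNA in wt at single times.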
